A study of Rattus norvegicus with 6 samples.

Results

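Libraries of cultured rat vascular smooth muscle cells that carried the number 3 in their titles were set against those that carried the number 1, within the MIAT knockdown group and within the Scr control group. This put 2 libraries on each side, knockdown 3 and control 3 against knockdown 1 and control 1, 4 of the 6 libraries of the series. Of 13423 genes with enough counts to compare, 9498 differed by the same sign in both groups. Among the 10478 genes with a mean level of at least 5 CPM (counts scaled to the library's size) over the 6 libraries, 201 (1.92%) differed at least 2-fold by the same sign in both groups, 58 higher and 143 lower in number 3. These 201 are called the 2-fold genes. The genes were chosen by their measured levels in these 4 libraries, and the contrast was picked because earlier results of the same data showed it, so the differences between number 3 and number 1 are a description and carry no test.

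The study sequenced polyadenylated RNA from smooth muscle cells of rat vessels, which contract the vessel wall and set its calibre. The tissue label reads vessel. The knockdown group held 3 libraries labelled MIAT knockdown, and the control group 3 libraries titled Scr with the genotype label WT. The knocked-down MIAT is a long noncoding RNA. The labels give 50 nM of small interfering RNAs and antisense oligonucleotides in all, left on the cells for 72 h. The same treatment text stands on the control libraries, and what the Scr cells received is not stated. Neither the strain, sex and age of the animals nor the passage of the cells is given. What the numbers 1 to 3 stand for is not stated either, so a culture, an isolate, a day and a batch of reagents cannot be told apart. Miat itself was not analysed here. Values for a gene are given in the order 1, 2 and 3 in each group, and each value is 1 library, so it has no error of its own.

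Smooth muscle cells in culture shift between a contractile state, with high levels of actin, myosin and calponin genes, and a synthetic state that divides and secretes matrix. The transcription factor SRF, with its partner myocardin, drives the contractile genes by binding the CArG box, and with other partners it drives early genes such as Egr1 after serum or growth factors. Cells short of sterols release SREBP2 from the endoplasmic reticulum, and the released factor turns on the whole pathway of cholesterol synthesis. NF-kB drives cytokine and chemokine genes in these cells, many of which also respond to interleukin 1.

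Total counts per library lay between 17793811 and 20121161. Acta2, Tagln, Myh11 and Cnn1, smooth muscle markers, were abundant in all libraries, and the 10 markers of the smooth muscle list summed to 6036 to 8833 CPM of total counts. Desmin (Des) stayed under 1 CPM in all libraries. Of other cell types, Cdh5 of endothelium reached 0.0547 CPM at most, the pan-leukocyte gene Ptprc had 1 count in 1 library, and the 11 endothelial and 12 leukocyte markers found in the table summed to 46.5 to 57.9 and 20.6 to 36.2 CPM. Egfl7, which is not restricted to endothelium, made up most of the endothelial sum. Adventitial fibroblast markers summed to 1942, 2002 and 2364 CPM in the knockdown libraries and 2610, 2415 and 2604 CPM in the controls. Within that list 6 of 9 tested markers were higher in number 3 in both groups and 1 lower, Pdgfra, Mfap5 and Dpt among the higher. In the Schwann and neural list 4 of 6 tested were higher and 1 lower. It summed to 224, 297 and 293 CPM in the knockdown libraries and 217, 299 and 453 CPM in the controls. With both groups averaged per gene, the median log2 differences of these 2 lists were 0.469 and 0.471. Of 5 tested pericyte markers 2 were higher and 2 lower, while all 3 tested striated muscle markers were lower. The part of these cell types in the results was not tested, and in bulk RNA fewer cells of a type and less RNA per cell cannot be told apart. The Y-linked Kdm5d, Eif2s3y and Uty lay at 30.5 to 40.4, 47.7 to 62.3 and 15.7 to 19.2 CPM in the 6 libraries, while Ddx3y, also Y-linked, was at 0.112 CPM at most.

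Across the 13423 genes, the difference between number 3 and number 1 in the knockdown group ran with that in the control group, with a Pearson correlation of 0.654 and a Spearman correlation of 0.587 over genes, which are not independent replicates. No library is shared between the 2 differences, but gene length, base composition and abundance are. Gene length in the deposited table had a Pearson correlation of -0.102 with the difference in the knockdown group and -0.018 in the control group (Spearman -0.147 and -0.0186). The 9498 genes of the same sign were 70.8% of those compared, 33.5% higher in both groups and 37.2% lower. The 2-fold genes were 0.554% (higher) and 1.36% (lower) of the genes of at least 5 CPM. Since the rule used these values, nothing is read from the shares.

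**Figure D1:**
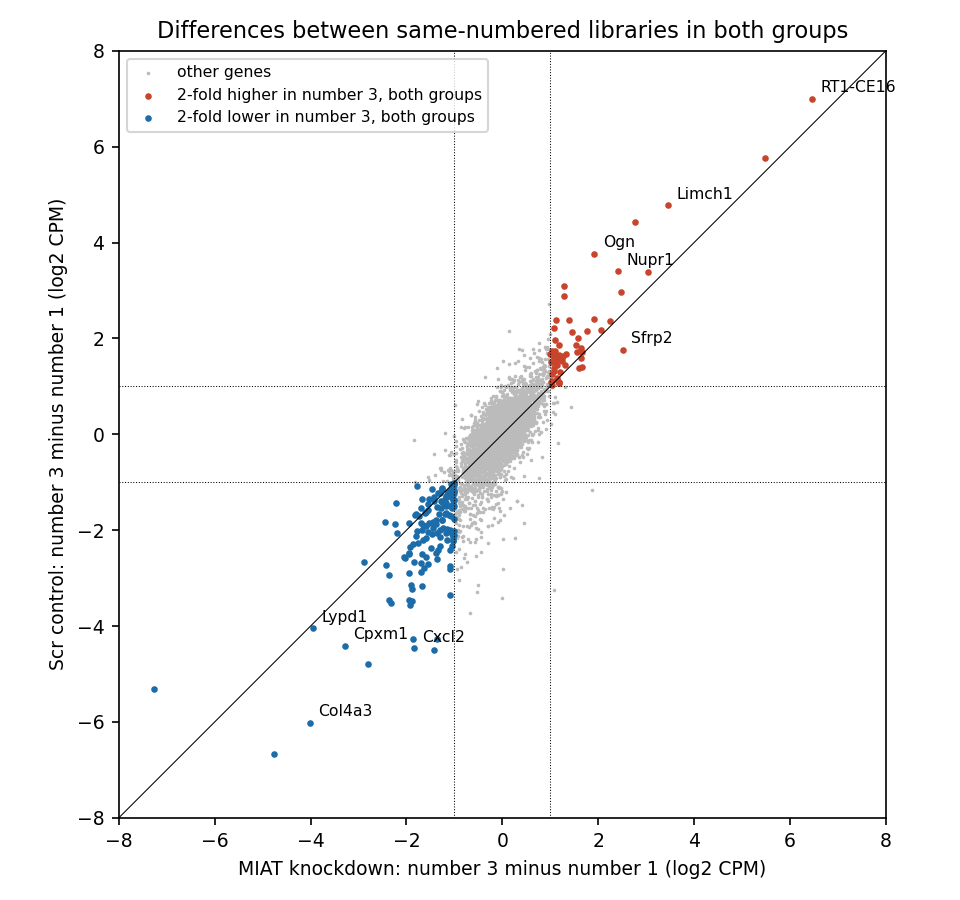
Each point is 1 of the 10478 genes of at least 5 CPM, with the difference between number 3 and number 1 (log2 CPM) in the knockdown group on the x axis and in the control group on the y axis; dotted lines mark 2-fold and the diagonal marks equal differences. The 58 red and 143 blue genes passed 2-fold in both groups, and most of them lie farther from 0 on the control axis.

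The control libraries lay farther apart than the knockdown libraries. The median absolute log2 difference over all genes was 0.20 in the knockdown group and 0.25 in the control group, and 245 and 567 genes of at least 5 CPM passed 2-fold in either direction. Of the 2-fold genes, 169 of 201 had the larger difference in the control group, 49 of the 58 higher and 120 of the 143 lower. Their median absolute log2 difference was 1.33 in the knockdown group and 1.85 in the control group. With knockdown 1 or knockdown 3 left out only the control pair remains, and 191 or 188 genes were 2-fold higher and 372 or 390 lower. With control 1 or control 3 left out only the knockdown pair remains, with 76 or 70 genes higher and 154 or 169 lower. By the smaller of the 2 log2 differences, Slc6a9 (1.0), Fosl1 (-1.002) and Pcdh17 (-1.003) stood just inside the 2-fold limit. Tfpi2 (-0.997), Add3 (0.996) and Ttc39b (-0.996) stood just outside it, so the border of the set separates near-equal values.

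Movement in opposite directions by at least 1.5-fold was seen in 4 genes. Mmp9, a gelatinase that cleaves matrix, was at 5.47, 0.698 and 11.6 CPM in the knockdown libraries and at 32.9, 2.47 and 3.37 CPM in the controls. Pla2g2a, a secreted phospholipase, was at 11.8, 2.74 and 43.2 CPM and at 45.5, 10.3 and 20.2 CPM. In both genes number 3 was above number 1 in the knockdown group and below it in the control group, and number 2 was the lowest library of its group. The other two were the complement gene C4a, with log2 differences of -0.98 and 0.61, and haptoglobin (Hp), with 0.76 and -0.90.

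The leading named genes higher in number 3 included secreted matrix and signalling proteins, a stress regulator and a homeobox factor. Ogn, a small leucine-rich proteoglycan of the collagen matrix, was at 6.72, 11.2 and 25.8 CPM in the knockdown libraries and at 4.48, 8.92 and 62.4 CPM in the controls. Sfrp2, a secreted regulator of Wnt signalling, was at 10.4, 5.04 and 59.6 CPM and at 15.99, 6.85 and 54.6 CPM. Chrdl1, a secreted antagonist of bone morphogenetic proteins, was at 15.7, 23.6 and 59.4 CPM and at 23.9, 31.5 and 128 CPM. For these 3 genes both number 3 libraries lay above all the other libraries. Number 2 lay between 1 and 3 for Ogn and Chrdl1 and below both for Sfrp2.

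Nupr1, a small chromatin-associated protein induced by stress, was at 31.9, 41.3 and 170 CPM in the knockdown libraries and at 20.4, 24.7 and 217 CPM in the controls, 5.31-fold and 10.6-fold higher in number 3 than in number 1. G0s2, an inhibitor of the triglyceride lipase ATGL, was at 2.45, 8.75 and 17.2 CPM and at 2.04, 8.81 and 46.2 CPM. Meox2, a homeobox factor known for restraining smooth muscle growth, was at 3.96, 6.44 and 13.8 CPM and at 3.63, 6.90 and 16.5 CPM. In each of these genes number 2 lay between number 1 and number 3 in both groups. Cxcl13, a chemokine for B cells, was at 5.21, 8.96 and 25.2 CPM and at 9.87, 15.9 and 51.6 CPM. Ndufa4l2, a mitochondrial protein induced under low oxygen, was at 11.7, 38.6 and 48.6 CPM and at 16.8, 43.2 and 76.0 CPM. Number 2 lay nearer number 1 for Cxcl13 and nearer number 3 for Ndufa4l2.

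Not all of the higher genes set number 3 apart from both other numbers. Limch1, an actomyosin-associated protein, was at 1.46, 20.6 and 17.1 CPM in the knockdown libraries and at 0.850, 16.6 and 26.2 CPM in the controls, so that number 1 alone was low. Palmd, a membrane-associated protein linked to valve calcification, was at 0.937, 14.5 and 5.71 CPM and at 1.47, 12.7 and 12.3 CPM, also with number 1 alone low. Pde2a, a phosphodiesterase that breaks down cyclic nucleotides, was highest in number 2, at 183 CPM in the knockdown group and 223 CPM in the control group, against 39.4 and 51.0 CPM in number 1. Gxylt2, a xylosyltransferase, was at 8.64, 16.96 and 27.5 CPM and at 14.3, 22.7 and 47.2 CPM, with number 2 between the others. H3f3c, listed in RefSeq as a histone H3 pseudogene, was at 21.9 and 21.3 CPM in number 3 and under 3 CPM elsewhere, and its reads may be shared with the near-identical H3.3 genes, so its level is uncertain.

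**Figure D2:**
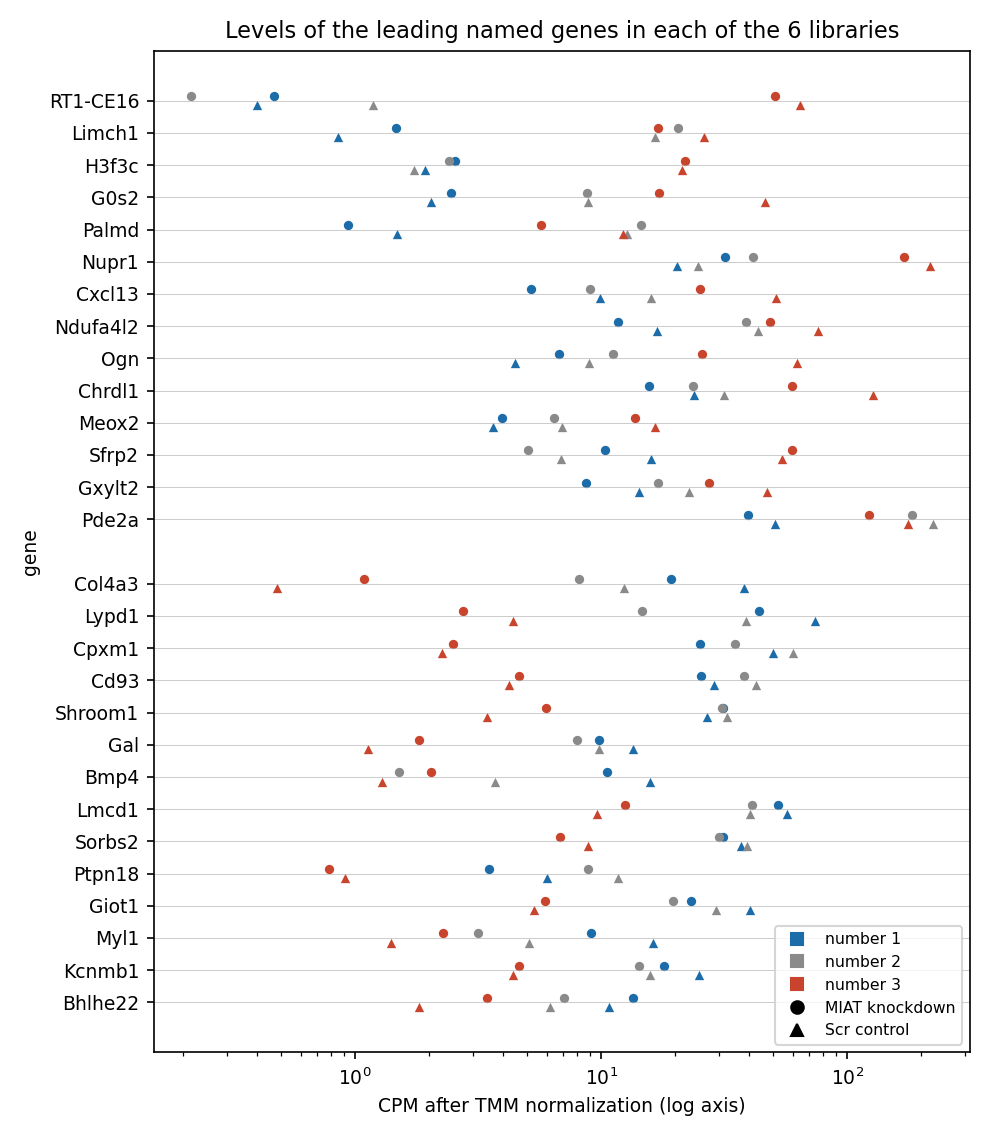
Level of each of 28 leading genes with a name (identifier-only symbols such as LOC numbers left out) in each library (CPM after TMM normalization, log axis), with the genes higher in number 3 in the upper block and those lower in the lower block; colour gives the library number, circles are MIAT knockdown and triangles Scr control, 1 library per point. The red points of number 3 sit at one end of most rows, while Limch1, Palmd and Pde2a have number 2 beside or beyond number 3.

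On the lower side Col4a3, given further on, and Lypd1 had the largest differences among named genes. Lypd1, a membrane-anchored modulator of acetylcholine receptors, was at 43.8, 14.7 and 2.75 CPM in the knockdown libraries and at 74.0, 38.7 and 4.39 CPM in the controls, 15.4-fold and 16.5-fold lower in number 3. Cpxm1, a secreted carboxypeptidase-like protein, was at 25.3, 34.9 and 2.49 CPM and at 50.0, 60.0 and 2.25 CPM. Cd93, a transmembrane receptor best known from endothelium, was at 25.4, 37.9 and 4.62 CPM and at 28.6, 42.8 and 4.23 CPM. For Cpxm1 and Cd93 number 1 and number 2 were both high and number 3 alone was low. Of the endothelial markers, Cdh5 was at or near 0 in all 6 libraries, as given above, while Kdr, a VEGF receptor, had 66, 46 and 16 counts in the knockdown libraries and 134, 76 and 35 in the controls. Of 7 tested endothelial markers 3 were lower in number 3 in both groups and 2 higher. With the differences of both groups averaged per gene, their median was 0.035. The higher ones were Tek and Erg. Tek had 10, 13 and 31 counts in the knockdown libraries and 7, 13 and 50 in the controls. Erg had 12, 18 and 40 counts and 13, 16 and 59. Thbd, Selp and Flt1, outside that list but also expressed by endothelium, were picked from the 2-fold lower genes after their values were seen. They therefore do not stand for endothelial genes as a set. Their log2 differences were -1.91 and -3.14, -1.38 and -2.48, and -1.07 and -1.03. Their part in the level of Cd93 was not tested.

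Bmp4, a growth factor of the bone morphogenetic protein family, was at 10.6, 1.503 and 2.03 CPM in the knockdown libraries and at 15.8, 3.70 and 1.29 CPM in the controls, with number 1 alone high. Its antagonist Chrdl1, described above, stood on the other side. Kcnmb1, the smooth muscle beta subunit of the large-conductance calcium-activated potassium channel, was at 18.1, 14.2 and 4.62 CPM and at 25.1, 15.8 and 4.39 CPM. Lmcd1, a LIM domain cofactor, was at 52.4, 41.2 and 12.5 CPM and at 57.2, 40.2 and 9.58 CPM. Both had number 2 between 1 and 3 in both groups.

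Sorbs2, an adaptor of stress fibres and Z-discs, was at 31.4, 30.1 and 6.80 CPM in the knockdown libraries and at 37.0, 39.2 and 8.84 CPM in the controls, with number 3 alone low. Shroom1, an actin-binding protein, had the same shape, at 31.2, 30.9 and 5.97 CPM and at 26.9, 32.5 and 3.43 CPM. Myl1, a myosin light chain of skeletal muscle, was at 9.11, 3.17 and 2.28 CPM and at 16.3, 5.11 and 1.39 CPM. The neuropeptide gene Gal, the phosphatase gene Ptpn18, the zinc finger gene Giot1 and the transcription factor gene Bhlhe22 completed the leading named genes of this side, 3.83-fold to 5.14-fold lower in the knockdown group and 5.61-fold to 11.0-fold lower in the control group.

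Some genes were close to absent in one number and present in the other. A limit chosen after the values were seen, under 2 CPM against at least 10 CPM in both groups, was met by 6 of the genes compared. Genes with counts in the libraries of 1 number alone were not among those compared, so they are not in this count. RT1-CE16, a class I histocompatibility gene of the rat RT1 cluster, had 9, 4 and 981 counts in the knockdown libraries and 7, 21 and 1204 counts in the controls. Its level in number 3 was 50.9 and 64.5 CPM, and no other library passed 1.18 CPM. Col4a3, a chain of the basement membrane collagen IV, was at 19.3, 8.16 and 1.09 CPM in the knockdown libraries and at 38.0, 12.4 and 0.482 CPM in the controls, the reverse direction. LOC691532, a gene without a name, had 773, 10 and 3 counts and 558, 11 and 13 counts, high in number 1 alone. The remaining ones were Limch1, LOC120095902 and LOC24906. Outside this limit, the unnamed LOC100911353 and LOC120101677 also differed by more than most of the named lower genes, with log2 differences of -2.80 and -4.78 and of -2.88 and -2.67.

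The RT1 genes did not move as a block. Of 22 tested RT1 genes, 6 were higher in number 3 in both groups, 13 lower and 3 of opposite sign. Over all genes 33.5% were higher and 37.2% lower. RT1-A3 was at 1.04, 1.40 and 7.94 CPM in the knockdown libraries and at 2.10, 3.09 and 8.78 CPM in the controls. RT1-T24-1 was at 10.8, 10.2 and 3.69 CPM and at 7.37, 7.07 and 3.75 CPM. RT1-CE5, the most abundant of them by the mean over all libraries, lay between 37.9 and 54.0 CPM in all libraries. In both number 3 libraries RT1-CE16, given above, was higher than RT1-CE5. RT1 genes differ between rat strains and hold near-identical copies among which reads can be shared, so the level of a single one is uncertain.

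Genes of cholesterol synthesis were higher in number 3 in both groups. Of the 25 genes of the list, all tested, 23 were higher in both groups and 0 lower, beside 33.5% and 37.2% of all genes, and 14 were at least 1.5-fold higher in both, beside 2.76%. Their median log2 difference was 0.69 in the knockdown group and 0.75 in the control group, against -0.0231 and -0.000433 over all tested genes. Ebp and Stard4 were the exceptions, lower by a log2 difference of -0.18 and -0.13 in the knockdown group and higher by 0.02 and 0.15 in the control group.

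Hmgcs1, which makes HMG-CoA at the entry of the pathway, was at 90.8, 169 and 189 CPM in the knockdown libraries and at 92.1, 152 and 262 CPM in the controls. Dhcr7, the last enzyme of the pathway, was at 9.63, 14.8 and 18.95 CPM and at 9.92, 14.3 and 26.9 CPM. Number 2 lay between number 1 and number 3 in both groups for both genes, and number 1 did not overlap with the others. Fdps and Fdft1, which build farnesyl diphosphate and squalene, had log2 differences of 0.90 and 0.94 and of 0.95 and 1.03 in the knockdown and control groups. Sqle and Cyp51, of the sterol branch, had 0.75 and 1.20 and 0.81 and 0.98. Scd2 and Fads2, lipid desaturases outside the list, were 2-fold higher in both groups, at 1.13 and 1.45 and at 1.03 and 1.73 on the log2 scale. Their own list, of fatty acid and lipid handling, had 14 of 30 genes higher in both groups and 12 lower. At least 1.5-fold higher were 5 and lower 4, and the list's medians were 0.05 and 0.04. Angptl4, of the same list, was lower, at -0.81 and -1.595.

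The promoters of Hmgcs1 and Nsdhl, a sterol dehydrogenase of the same pathway, are shown as members of a list that moved together. Each is the 250 bases before the gene start in RefSeq on the GRCr8 assembly, Hmgcs1 at chr2:53382054-53382303 and Nsdhl at chrX:155817110-155817359, both on the plus strand, with capitals for the CCAAT box on either strand (ATTGG on the reverse strand).
Hmgcs1: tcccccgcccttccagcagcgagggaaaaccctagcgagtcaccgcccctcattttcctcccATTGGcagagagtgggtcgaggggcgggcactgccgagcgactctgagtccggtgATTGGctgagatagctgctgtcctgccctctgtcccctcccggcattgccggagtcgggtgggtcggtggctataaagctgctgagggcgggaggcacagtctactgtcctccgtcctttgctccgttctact
Nsdhl: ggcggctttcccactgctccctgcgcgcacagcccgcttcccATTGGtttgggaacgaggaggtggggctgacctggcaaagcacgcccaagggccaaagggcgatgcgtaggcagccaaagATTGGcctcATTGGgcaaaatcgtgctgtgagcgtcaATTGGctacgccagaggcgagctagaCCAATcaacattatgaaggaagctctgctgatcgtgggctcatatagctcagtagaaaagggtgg
The first holds 2 such boxes and the second 5. Of the 17 list members with a promoter in the RefSeq table, 14 (82.4%) held CCAAT in these 250 bases on either strand, against 35.8% of the promoters of 10335 tested genes. The list of mitosis genes, whose medians differed in sign between the groups, had 77.5%, so the box is not particular to the cholesterol list. The sterol response motif, searched on both strands as ATCAC, any base, then CCAC, was found in 0 of the 17 and in 0.0968% of all, which says only that these letters are not in this window. Nsdhl was at 28.4, 38.2 and 45.7 CPM and at 30.5, 42.4 and 52.5 CPM.

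In the early genes, which cells switch on within minutes of a stimulus, number 3 was the lower side. Of 31 tested early and serum response genes, 26 were lower in number 3 in both groups and 3 higher. Beside them stand 37.2% and 33.5% of all genes. At least 1.5-fold lower in both were 17, beside 6.62% of all genes. The median log2 difference was -0.62 in the knockdown group and -1.09 in the control group. Jund, Klf4 and Dusp1 were the 3 higher genes.

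Nr4a1, an orphan nuclear receptor induced by many stimuli, was at 175, 144 and 69.1 CPM in the knockdown libraries and at 240, 198 and 45.2 CPM in the controls. Nr4a3, of the same family, was at 30.8, 40.4 and 11.4 CPM and at 48.8, 51.8 and 13.3 CPM. Dusp4, a phosphatase that switches off nuclear ERK, was at 137, 110 and 45.2 CPM and at 162, 127 and 36.2 CPM. In all 3 genes the number 3 libraries were the lowest and did not overlap with the others, and number 2 lay nearer number 1. Egr1, the early zinc finger factor, was at 159, 113 and 71.0 CPM and at 116, 88.8 and 25.0 CPM, and Dusp5, a further ERK phosphatase, at 52.7, 37.5 and 21.2 CPM and at 31.6, 19.2 and 7.12 CPM. In both genes number 2 lay between the higher number 1 and the lower number 3 in both groups. The AP-1 subunit Fos was at 14.2, 8.21 and 11.5 CPM and at 31.5, 14.8 and 6.48 CPM, so that in the knockdown group number 2 was the lowest.

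Egr1 and Dusp5 are shown because they are 2-fold genes of this list with 2 CArG boxes each, the site that SRF binds. The CArG box was searched as CC, then 6 bases that are A or T, then GG, which reads the same way on both strands. The sequences are the 250 bases before the gene start in RefSeq on GRCr8, Egr1 at chr18:26736828-26737077 and Dusp5 at chr1:262543524-262543773, both on the plus strand, with the boxes in capitals.
Egr1: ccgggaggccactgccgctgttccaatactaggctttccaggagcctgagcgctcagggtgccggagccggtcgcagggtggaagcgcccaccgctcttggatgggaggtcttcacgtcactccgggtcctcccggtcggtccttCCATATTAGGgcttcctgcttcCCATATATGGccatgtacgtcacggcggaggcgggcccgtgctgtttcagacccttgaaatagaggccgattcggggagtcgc
Dusp5: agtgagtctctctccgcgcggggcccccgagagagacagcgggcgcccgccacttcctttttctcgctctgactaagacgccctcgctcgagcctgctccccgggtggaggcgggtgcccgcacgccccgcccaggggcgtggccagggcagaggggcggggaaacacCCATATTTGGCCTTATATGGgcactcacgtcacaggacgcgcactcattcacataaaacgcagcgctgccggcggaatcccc
In Dusp5 the boxes adjoin each other. A CArG box stood in 5 of the 21 early genes with a promoter in the table (23.8%), Egr1, Egr2, Klf6, Dusp5 and Zfp36, against 1.25% of all tested genes with one. Among the 2-fold lower genes the share was 3.09% (Egr1, Dusp5 and Tbc1d9 of 97), and among the higher genes 0 of 42. The early list was drawn up from genes known to respond to serum, so its share of CArG boxes is not a result about the libraries.

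Cytokine genes were lower in number 3, by more in the control group than in the knockdown group. Of 39 tested genes, 25 were lower in both groups and 2 higher, beside 37.2% and 33.5% of all genes. At least 1.5-fold lower in both were 11, beside 6.62%. The median log2 difference was -0.17 in the knockdown group and -1.12 in the control group, where 37 of 39 were lower against 25 in the knockdown group, and this difference between the groups was not tested. Il1a, which encodes interleukin 1 alpha, was at 321, 127 and 88.0 CPM in the knockdown libraries and at 586, 192 and 30.0 CPM in the controls. Cxcl2, a chemokine for neutrophils, was at 35.1, 7.46 and 9.76 CPM and at 84.5, 19.3 and 3.75 CPM. In both genes number 1 was the highest library of each group, and number 3 stood lowest in the control group.

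Ptges, the inducible prostaglandin E synthase, was at 156, 51.6 and 48.5 CPM in the knockdown libraries and at 214, 58.0 and 23.6 CPM in the controls. Ptgs2, which encodes cyclooxygenase 2 upstream of it, was at 630, 181 and 293 CPM and at 1074, 264 and 105 CPM. Lif, a cytokine of the interleukin 6 family, was at 757, 438 and 355 CPM and at 683, 399 and 101 CPM. For all of these number 1 was above number 2 and number 3 in both groups. Il6 itself was at 565, 388 and 395 CPM and at 944, 537 and 240 CPM. Ccl2, the main chemokine for monocytes, was at 4157, 3212 and 4411 CPM and at 4541, 3405 and 3171 CPM, with differences of 0.09 and -0.52 on the log2 scale. Ccl11, which encodes eotaxin, stood the other way, at 27.9, 25.0 and 41.8 CPM and at 56.7, 45.7 and 111 CPM. The NF-kB inhibitor gene Nfkbia had log2 differences of -0.02 and -1.12, and Rela, which encodes a subunit of NF-kB, 0.02 and -0.03.

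The Cxcl2 promoter is shown as that of a 2-fold gene with a pair of NF-kB motifs, searched on both strands as GGG, any 2 bases, then TTTCC. It is the 250 bases before the start at chr14:17467256-17467505 of GRCr8 in RefSeq, minus strand, with the motifs in capitals.
Cxcl2: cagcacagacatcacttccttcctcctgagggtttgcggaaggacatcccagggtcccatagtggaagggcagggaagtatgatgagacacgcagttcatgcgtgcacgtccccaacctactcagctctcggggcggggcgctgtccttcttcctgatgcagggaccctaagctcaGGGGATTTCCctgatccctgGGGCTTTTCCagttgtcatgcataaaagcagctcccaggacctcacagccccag
The motif stood in 9 of 30 cytokine genes with a promoter in the table (30%) against 1.43% of all. Among the 2-fold lower genes it stood in 3 of 97 (Cxcl2, Dusp5 and Nox1) and among the higher in 0 of 42. Of the 13 motifs searched, the AP-1 motif TGANTCA stood in 9.28% of the lower genes, 0% of the higher genes and 4.42% of all. The TATA box TATAAA stood in 13.4% and 14.3% of the lower and higher genes and in 6.57% of all. The 5 promoters were picked after all motifs had been searched over all sets, and the shares carry no test.

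Contractile genes as a list were lower in number 3, and its abundant members differed in both size and sign. Of 28 tested, 19 were lower in both groups, 1 was higher and 8 had opposite signs, and 5 were at least 1.5-fold lower in both. Over all genes 37.2% were lower, 33.5% higher and 6.62% at least 1.5-fold lower. The median log2 difference was -0.38 in the knockdown group and -0.20 in the control group. Myocd, the coactivator of SRF, was at 16.5, 4.03 and 4.88 CPM in the knockdown libraries and at 18.3, 5.84 and 5.52 CPM in the controls, with number 1 alone high. Actg2, the gamma actin of smooth muscle, was at 62.0, 53.3 and 17.7 CPM and at 73.3, 61.0 and 23.2 CPM, with number 3 alone low. Acta2, the alpha actin, was at 1957, 2851 and 2085 CPM and at 2179, 3012 and 2954 CPM, higher in number 3 by 0.09 and 0.44 on the log2 scale. Tagln, a calponin-related actin-binding protein, differed by -0.23 and -0.04. Myl9, a regulatory myosin light chain, was at 761, 953 and 545 CPM and at 949, 1082 and 659 CPM, lowest in number 3 in both groups. Myh11, the smooth muscle myosin heavy chain, was at 135, 255 and 108 CPM and at 183, 293 and 201 CPM, highest in number 2 in both groups. Number 2 was above number 1 for the list as a whole, by a median of 0.19 and 0.20. With the differences of both groups averaged per gene, the list's median was -0.345, and -0.203 after a correction for gene length.

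Collagen genes differed in both directions. Of 22 tested, 14 were higher in number 3 in both groups and 6 lower, beside 33.5% and 37.2% of all genes. At least 1.5-fold higher were 7 and lower 2, beside 2.76% and 6.62%. The medians were 0.17 and 0.63. Col3a1, a chain of the interstitial fibrils, was at 3582, 5936 and 7595 CPM in the knockdown libraries and at 3230, 5663 and 14980 CPM in the controls. Col1a1, the main collagen chain of the vessel wall, had log2 differences of 0.86 and 1.36. Col14a1, which binds fibrils, was at 7.45, 14.9 and 18.3 CPM and at 6.63, 14.3 and 57.8 CPM. Number 3 was above the other libraries of its group in each. Col15a1, a collagen of the basement membrane zone, was at 726, 469 and 250 CPM and at 1147, 663 and 317 CPM, and Col7a1, of anchoring fibrils, at 115, 66.1 and 47.6 CPM and at 99.8, 67.8 and 28.8 CPM. In both, number 3 was the lowest library of its group and number 1 the highest. Col4a1 and Col4a2, the main basement membrane chains, were lower by small amounts, at -0.17 and -0.29 and at -0.17 and -0.18. Col18a1, also of basement membranes, stood the other way, at 2.50, 4.72 and 5.81 CPM and at 4.54, 4.04 and 9.64 CPM. Col4a3, given above, is not in the list. The laminin chain Lama5 was at 52.6, 30.8 and 13.6 CPM and at 84.0, 49.7 and 23.2 CPM.

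Integrins are the receptors that bind cells to matrix. Of 21 tested, 13 were lower in both groups and 2 higher, beside 37.2% and 33.5% of all genes. At least 1.5-fold lower were 7, beside 6.62%, and the medians were -0.24 and -0.42. Itga6, a laminin receptor chain, was at 40.4, 23.8 and 7.32 CPM in the knockdown libraries and at 44.2, 24.0 and 12.3 CPM in the controls. Itga2, a collagen receptor chain, was at 91.4, 58.8 and 26.2 CPM and at 86.1, 55.4 and 19.7 CPM. Itga4, of a fibronectin and VCAM1 receptor, was at 10.2, 8.75 and 3.12 CPM and at 8.504, 8.02 and 3.27 CPM. Each was lowest in number 3 without overlap between number 1 and number 3. Itgb1, the most abundant integrin gene, had differences of -0.13 and 0.22.

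Ribosomal protein genes were higher in number 3 by small and even amounts. Of 50 tested, 48 were higher in both groups and 1 lower, beside 33.5% and 37.2% of all genes. The medians were 0.21 and 0.25, and 1 gene passed 1.5-fold. That one was Rpl30, at 84.3, 259 and 191 CPM in the knockdown libraries and at 88.1, 230 and 187 CPM in the controls, so that number 1 alone was low. Ribosomal protein genes have many near-identical pseudogenes, and the split of reads among them is uncertain. Genes that build ribosomes in the nucleolus were on the other side, 34 of 50 lower in both groups and 7 higher, with medians of -0.09 and -0.17 and none at 1.5-fold. Ncl, which encodes nucleolin, was at 727, 728 and 639 CPM and at 614, 650 and 591 CPM.

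**Figure D3:**
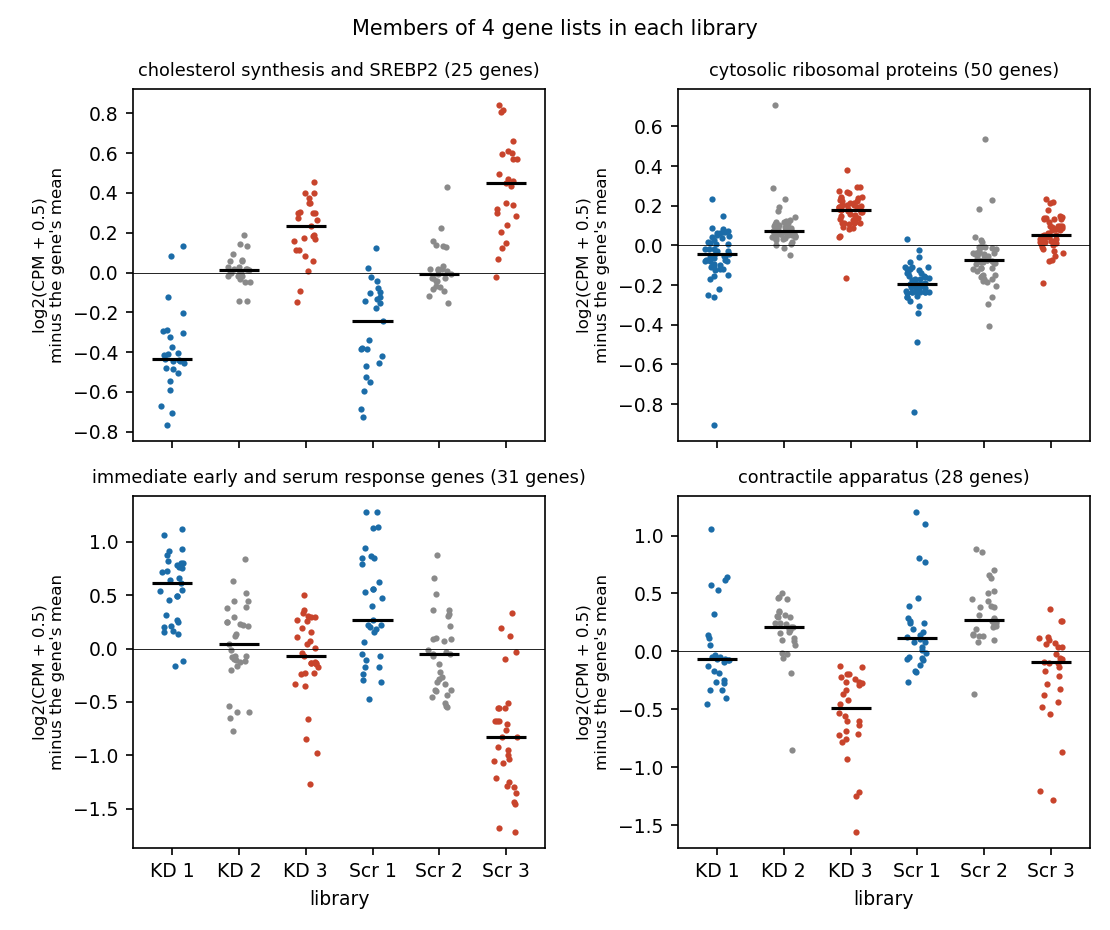
Members of 4 gene lists in each of the 6 libraries, each point 1 gene as log2(CPM + 0.5) minus its mean over the libraries, with the median of each library as a bar (KD, MIAT knockdown; Scr, Scr control). Cholesterol genes are lowest in number 1 and highest in number 3 in both groups, ribosomal protein genes likewise by less, early genes the reverse, and contractile genes are highest in number 2.

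Genes of DNA replication and the G1 to S step were lower in number 3, with medians of -0.27 and -0.19. Lower in both groups were 34 of 48 and higher 5, beside 37.2% and 33.5% of all genes. At least 1.5-fold lower were 3, beside 6.62% of all genes. Ccnd1, which encodes cyclin D1, was at 226, 146 and 93.9 CPM in the knockdown libraries and at 148, 109 and 56.4 CPM in the controls. Cdc6, a loading factor of the replication helicase, was at 21.1, 16.3 and 11.9 CPM and at 12.0, 12.0 and 6.80 CPM. Ccnd2, which encodes cyclin D2, was at 14.2, 13.6 and 6.33 CPM and at 17.01, 17.4 and 8.62 CPM. Number 3 was the lowest library of its group in all 3 genes. Mitosis genes differed in sign between the groups, with medians of -0.20 and 0.04.

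Lysosomal genes were higher in both groups in 30 of 42 and lower in 5, with medians of 0.19 and 0.24. Beside these and the lists that follow stand 33.5% higher and 37.2% lower of all genes. Ctsh, a cathepsin, was at 91.3, 112 and 157 CPM in the knockdown libraries and at 112, 120 and 192 CPM in the controls. Genes of glycolysis and the low-oxygen response were higher in 24 of 34 and lower in 6. Bnip3, a mitochondrial receptor of autophagy induced under low oxygen, was at 157, 244 and 254 CPM and at 150.1, 218 and 263 CPM, with number 1 alone low. Respiratory chain genes were higher in 26 of 48 and lower in 3 by small amounts, with medians of 0.12 and 0.06. Metallothionein Mt1 was at 38.1, 67.2 and 71.7 CPM and at 29.0, 57.4 and 54.6 CPM, and Mt2A had the same shape.

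The integrated stress response is the programme that ATF4 drives when amino acids run short. Of its 29 tested genes, 17 were higher in both groups and 4 lower, beside 33.5% and 37.2% of all genes. The medians were 0.13 and 0.52. Nupr1, given above, led them, and Ddit4, an inhibitor of mTORC1, was at 44.9, 60.4 and 86.2 CPM in the knockdown libraries and at 44.5, 52.1 and 101 CPM in the controls. Psat1 and Phgdh, of serine synthesis, had log2 differences of 0.58 and 1.59 and of 0.64 and 1.495. Trib3, a target of the same programme, was at -0.12 and 1.39, so that its difference stood in the control group.

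Signalling genes varied by pathway. Igf1, insulin-like growth factor 1, was at 14.1, 10.7 and 2.96 CPM in the knockdown libraries and at 11.3, 8.25 and 4.12 CPM in the controls. Its binding protein Igfbp4 stood the other way, at 9.68, 11.7 and 23.7 CPM and at 5.78, 8.70 and 43.5 CPM, as did Igfbp3, at 13.3, 23.3 and 29.2 CPM and at 16.6, 28.3 and 36.3 CPM. In the TGF-beta list Inhba, the activin A subunit, was at 1104, 787 and 394 CPM and at 1352, 908 and 261 CPM. Tgfbr3, the betaglycan receptor, was at 57.5, 58.6 and 113 CPM and at 68.4, 73.6 and 164 CPM, with number 3 alone high. The Notch target Hes1 was at 45.5, 18.8 and 22.4 CPM and at 32.9, 13.5 and 7.34 CPM, with number 1 alone high.

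From further lists single genes are given, although some of these lists were lower in more than single genes. Of 16 tested osteochondrogenic and calcification genes, 10 were lower in both groups and 3 higher, with 7 at least 1.5-fold lower. Of 45 prostanoid, nitric oxide and vasoactive receptor genes, 23 were lower and 10 higher, with 11 at least 1.5-fold lower. Beside these lists stand 37.2% lower, 33.5% higher and 6.62% at least 1.5-fold lower of all genes. Ankrd1, a target of YAP, was at 28.4, 31.1 and 9.60 CPM in the knockdown libraries and at 29.1, 32.2 and 9.69 CPM in the controls, near-identical in both groups. Tnfrsf11b, which encodes osteoprotegerin, was at 287, 268 and 138 CPM and at 377, 284 and 74.6 CPM. Gata4, a transcription factor of heart and gut, was at low level, at 3.70, 1.56 and 0.156 CPM and at 3.57, 2.02 and 0.214 CPM. Pde3a, a phosphodiesterase of cyclic nucleotides, was at 12.96, 11.3 and 3.48 CPM and at 25.9, 20.6 and 5.19 CPM, opposite in direction to Pde2a. Among circadian clock genes 11 of 18 were lower in both groups and 3 higher, and Per2 was at 37.2, 31.7 and 23.5 CPM and at 31.4, 31.1 and 17.9 CPM.

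**Figure D4:**
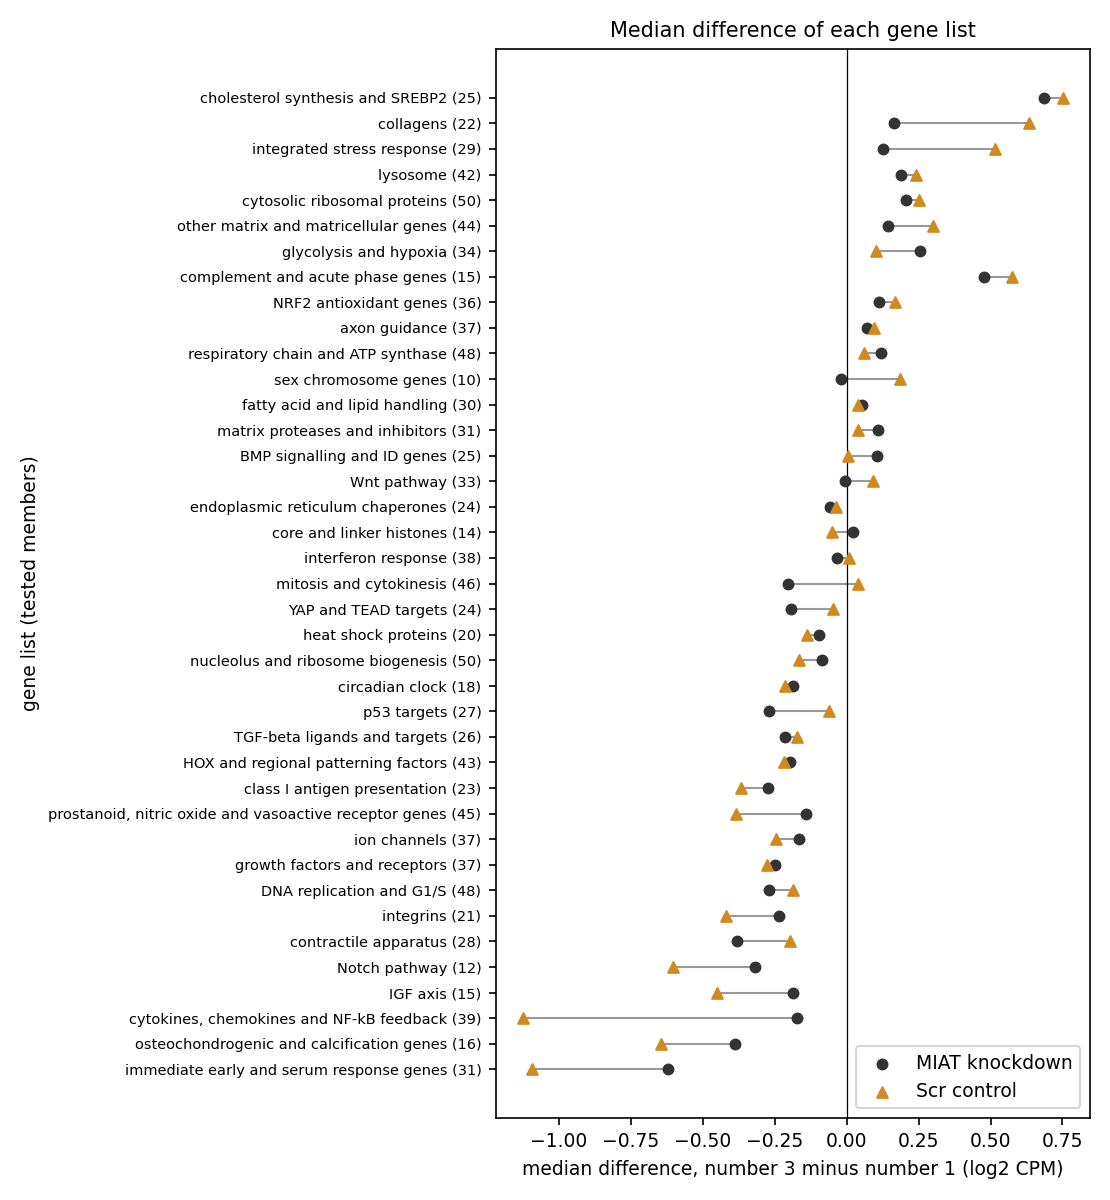
Median difference between number 3 and number 1 (log2 CPM) over the tested members of each of 39 gene lists, with the number of members in brackets; circles are MIAT knockdown, triangles Scr control, and the line joins the groups. Cholesterol genes stand at 0.69 and 0.75 at one end and early genes at -0.62 and -1.09 at the other, and the cytokine list has the widest gap between the groups.

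The number 2 libraries did not enter the differences by which the genes were chosen. They did enter the scaling, the low count filter and the mean level, so their positions are not independent of the choice. For 111 of the 201 2-fold genes (55.2%) both number 2 libraries lay nearer to number 1 of their own group, for 45 (22.4%) both lay nearer to number 3, and for 45 they were split. The 143 lower genes had 88 and 32, and the 58 higher genes 23 and 13. Both number 2 libraries lay between number 1 and number 3 for 133 genes (66.2%), against 26% of all genes of the same sign. A gene chosen for its distance between number 1 and number 3 tends to have number 2 between them for that reason alone, so the shares are a description. The difference between number 2 and number 1 had a Pearson correlation between the groups of 0.623, and that between number 3 and number 2 of 0.506, over the same genes.

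Knockdown against control is a contrast that the choice of genes did not use, although the same 4 libraries enter both. In edgeR's quasi-likelihood test without the replicate number as a block, 0 of 13423 genes passed an adjusted p of 0.05, 2576 had an unadjusted p under 0.05, and DESeq2 called 699 (5.42% of those to which it gave an adjusted p). Among the 2-fold genes the counts were 0, 4 and 2. With the number as a block, edgeR called 2898 of all genes (21.6%) and 2668 of those of at least 5 CPM (25.5%, 12.4% upward and 13.1% downward). Of the 201 genes, 64 were called (31.8%), 17 upward and 47 downward. The 58 higher genes had 16 falls (27.6%) and 0 rises, and the 143 lower genes had 31 falls and 17 rises. DESeq2 with the block called 42 of the 201 (20.9%), beside 1595 of all genes with an adjusted p (12.4%) and 14.2% of those of at least 5 CPM. Leaving out a library moved the 64 to 28 without knockdown 1, 38 without knockdown 2, 109 without knockdown 3, 32 without control 1, 42 without control 2 and 104 without control 3. The 16 falls moved to 10 without knockdown 1 or control 1.

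Among the higher genes that fell in the knockdown libraries, Cxcl13 had a log2 fold change of -0.94 (edgeR adjusted p = 0.00164 with the block and 0.526 without). Chrdl1 fell by 0.75 (adjusted p = 0.00563 with the block, 0.552 without) and Adamts5, an aggrecanase, by 0.76 (0.0144 and 0.402). Each was lower in the knockdown library at all 3 numbers. Of the lower genes, Bdkrb2, the bradykinin B2 receptor, rose by 1.04 (adjusted p = 0.00164 with the block, 0.391 without), from 35.2, 15.2 and 9.05 CPM in the controls to 65.1, 28.6 and 23.7 CPM. Ryr3, a calcium release channel, fell by 1.61 (0.00169 and 0.229), from 27.8, 18.2 and 4.61 CPM to 7.24, 5.96 and 2.34 CPM. Cyclin D1 (Ccnd1) rose by 0.59 (0.00213 and 0.494) and Lypd1 fell by 0.99 (0.00344 and 0.688). Bdkrb2 and Ccnd1 were higher and Ryr3 and Lypd1 lower in the knockdown library at all 3 numbers, while the ranges of the groups overlapped in all 7 genes.

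Within each number, the knockdown minus control difference of the sets was not even. Over the 58 higher genes its median was -0.16 in number 1, 0.03 in number 2 and -0.59 in number 3, with 37, 27 and 51 genes lower in the knockdown library. Over the 143 lower genes it was -0.18, -0.20 and 0.27, with 91, 99 and 43 lower. Over all genes of at least 5 CPM the medians were 0.01, 0.00 and -0.01. The higher genes were thus lower in knockdown 3 than in control 3 and the lower genes higher. This is part of the same measurement as the larger differences in the control group given above, into which number 1 enters as well. The part of the number 3 difference in the falls was not tested.

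**Figure D5:**
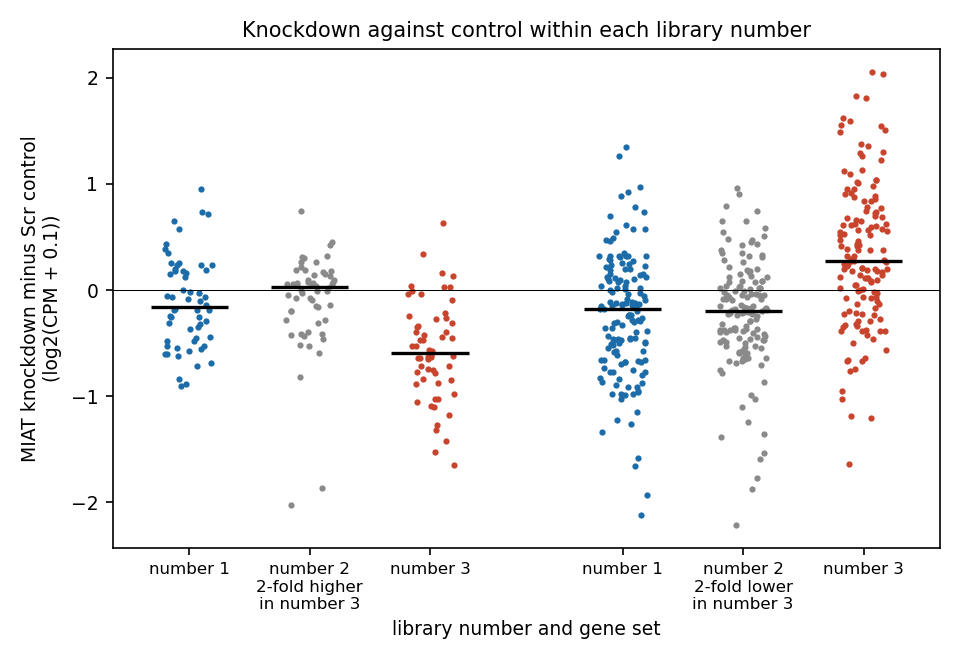
Difference between the knockdown and the control library of the same number (log2(CPM + 0.1)) for the 58 genes higher and the 143 genes lower in number 3; each point is a gene and bars are medians. In number 3 the higher genes sit below 0 (median -0.59) and the lower genes above it (0.27), with medians between -0.20 and 0.03 in the other two numbers.

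The knockdown comparison with the block called few cholesterol genes and more early, contractile and collagen genes. In the cholesterol list 1 gene rose and 2 fell of 25, and in the cytokine list 2 rose and 4 fell of 39, beside 10.5% rising and 11.1% falling of all genes. Of 31 early genes 14 rose and 4 fell, of 28 contractile genes 0 rose and 11 fell, and of 22 collagens 0 rose and 14 fell. Some other lists had more calls, with 40 rises and 0 falls among 46 mitosis genes. The 48 replication genes had 33 rises and 1 fall, and the 50 nucleolar genes 27 rises and 0 falls. The 42 lysosomal genes had 0 rises and 26 falls, and the 38 interferon response genes 1 rise and 27 falls. None of these passed in edgeR without the block.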

How the data were processed

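The deposited counts are whole numbers per gene symbol, unscaled, as their values show. The deposited FPKM, so named by the authors, equal those counts divided by 1 length per gene and by the library total. For the aligner, counter, strand setting and build the entry is: not given in the sources used here. FPKM served only for gene lengths. No column was left without a sample. Scaling was by TMM, and filterByExpr dropped genes of low count (edgeR 4.0.16, R 4.3.3), which left 13423 of 18631 genes, and levels are CPM after TMM. Differences are log2 CPM with a prior count of 2, taken within each group, and a 2-fold gene had the same sign, 2-fold in both groups and a mean of at least 5 CPM. FilterByExpr and the mean level used all 6 libraries. The filter asked for a minimum count in as many libraries as a group holds, which is more than share a number. A gene with counts in 1 number alone was thus dropped. One high in 1 number with a few counts in another could pass. The labels name no separate cultures, so a p-value here measures the spread between samples that may be technical replicates. With the library number as a block, it measures the spread left after differences between the numbers are removed, on 2 residual degrees of freedom.

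Knockdown was tested against control with edgeR's quasi-likelihood test at 0.05, with p-values adjusted by Benjamini and Hochberg's method over the whole table. The words rose and fell refer to this test with the library number as a block. Same-numbered libraries deviated together from their group means (correlations over genes of 0.676, 0.517 and 0.582 for numbers 1 to 3), so the numbers pair the samples. The pairing comes from the shared numbers and the data, not from a statement in the labels. DESeq2 1.42.0, other scalings, filters and prior counts, a fit of all 6 libraries, a loess correction for gene length (span 0.5) and leaving out each library were alternatives. Scripts were tested on simulated data.

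The contrast, the 39 gene lists, the motifs and the tests were chosen with earlier results of these data known. Genes were named by rule, which left out symbols that are only identifiers, such as those that start with LOC or RGD: the 14 largest higher and 14 largest lower genes of at least 5 CPM by the smaller of both differences, and up to 3 members per list of at least 1.5-fold in both groups, or the most abundant member. Some genes that the rule names are not reported here. All other genes named were chosen after their values were seen: C4a, Hp, Mmp9, Pla2g2a, LOC691532, LOC120095902, LOC24906, LOC100911353, LOC120101677, Kdr, Tek, Erg, Thbd, Selp, Flt1, Myl9, Col18a1, RT1-A3, RT1-CE5, Ebp, Stard4, Fdps, Fdft1, Sqle, Cyp51, Nsdhl, Jund, Klf4, Dusp1, Egr1, Dusp5, Fos, Egr2, Klf6, Zfp36, Tbc1d9, Nox1, Ptgs2, Lif, Il6, Ccl2, Ccl11, Nfkbia, Rela, Actg2, Acta2, Tagln, Myh11, Col3a1, Col1a1, Col4a1, Col4a2, Itgb1, Psat1, Phgdh, Trib3, Pdgfra, Mfap5 and Dpt. Marker and Y-linked levels are CPM of total counts. RefSeq on GRCr8 gave names for 16598 symbols, 189 of the 201 2-fold genes among them (188 protein-coding), and promoters for 10335 tested genes, 42 of the 58 higher and 97 of the 143 lower. The authors' build being unknown, coordinates belong to the printed promoters alone. Lists of mitochondrially encoded and of small nucleolar RNA host genes were not used here.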

Additional observations from a re-analysis of the deposited data

Results flagged for a closer look

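In 5 gene lists and 4 of the genes named for their lists, the difference between number 3 and number 1 had opposite signs in the knockdown and the control group. The difference between the groups was not tested for any of them. The mitosis and cytokinesis list had median log2 differences of -0.205 in the knockdown group and 0.04 in the control group, and its gene Mki67 had -0.215 and 0.141. The interferon response list had -0.033 and 0.009, the Wnt pathway list -0.004 and 0.093, and the core and linker histone list 0.021 and -0.05. The sex chromosome list had -0.02 and 0.184, and its gene Ddx3x -0.0786 and 0.147. Hspa8, a heat shock protein, had 0.00119 and -0.122, and Atp5f1b, a subunit of ATP synthase, 0.125 and -0.000573. Most of these values are small beside the median absolute differences over all genes given above, although a median over a list is not the same measure as the value of a single gene. The mitosis list and Mki67 reached that of the knockdown group. Of the 46 tested mitosis genes, 44 were lower in number 3 in the knockdown group, and 28 were higher in the control group.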

How the results depend on the processing

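The 58 higher and 143 lower genes became 115 and 259 in an edgeR fit of all 6 libraries with 2-fold in the fitted difference, 110 and 361 with no minimum mean level, and 234 and 390 at 1.5-fold in both groups. Leaving out 1 library gave 57 to 191 higher and 134 to 390 lower genes. Other scalings, a prior count of 0.5, no low count filter and the length correction kept both counts within 1.5 times. Of the knockdown calls among the 2-fold genes, 0 in edgeR without the block, the replicate block gave 64, DESeq2 gave 2 without and 42 with it, and with the block DESeq2 size factors gave 66 and total count scaling 57. Leaving out a library kept the unblocked count at 0 and moved the blocked count to between 28 and 109 (38 without knockdown 2, 32 without control 1). The 16 falls among the higher genes became 10 in DESeq2 with the block and 10 to 16 with a library left out. Where leaving out a library left 1 library of a pair, that number no longer informed the blocked fit. Total count scaling shifted the median difference of all genes by -0.062. Of 468 list values under alternatives 104 moved by more than the spread used and 364 did not, and of 1392 values of named genes 82 and 1310. None changed sign among the values called. Counting noise limits genes of a few CPM, and 2 libraries a side give no error for the differences by number.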
